A study of Homo sapiens with 44 samples.

Results

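The genes described here are 36 targets and effectors of the integrated stress response and the unfolded protein response, the programmes with which a cell answers amino acid shortage, impaired translation and misfolded protein in the endoplasmic reticulum (ER). They were chosen by symbol, and all 36 were present in both RNA tables, among 25690 genes of the HEK293-GR table and 25689 symbols of the A549 table. They were kept in a pair of arms: 23 genes of the ATF4 amino acid arm and 13 genes of the ER chaperone arm. All 36 passed the filter on low reads in HEK293-GR, where 15594 genes were tested.

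The study lowered IRF2BP2, a nuclear protein that acts with transcription factors, with a pool of small interfering RNAs (siIRF2BP2) and used a non-targeting pool (siNON) as the control, each at 20 nM for 72 h in steroid-depleted medium. HEK293-GR cells, an isogenic embryonic kidney line built to express the glucocorticoid receptor at all times, then received ethanol vehicle or 100 nM of the synthetic glucocorticoid dexamethasone (dex) for 6 h. A549 cells, a lung adenocarcinoma line, received vehicle, dex, the inflammatory cytokine TNF at 10 ng/ml, or dex plus TNF, also for 6 h. Poly(A) RNA was sequenced from 40 samples, and IRF2BP2 was mapped by chromatin immunoprecipitation (ChIP-seq) in 4 samples of HEK293-GR cells after 1 h of vehicle or dex. Every RNA sample, controls included, had been transfected and kept in steroid-depleted medium, and every HEK293-GR cell carried the added receptor. The question the design addresses is how IRF2BP2 bears on the response to glucocorticoid and TNF.

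In the integrated stress response, kinases that sense stress phosphorylate eIF2, general translation falls, and the mRNA of the transcription factor ATF4 is translated more. ATF4 then turns on genes for amino acid import, serine and one-carbon metabolism, and further regulators such as DDIT3 (CHOP), ATF3 and TRIB3. In the unfolded protein response, IRE1 splices XBP1 mRNA and ATF6 is cleaved to an active factor, and these raise the ER chaperones, co-chaperones and degradation factors of the second arm. ATF4 output is set largely by translation, XBP1 activity by splicing and ATF6 activity by cleavage, so gene-level mRNA reads none of these steps directly.

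Promoter sequences of the arms differed in the motif letters they held. RefSeq promoter windows (GRCh38.p14, 250 bases before to 50 after a start) were found for 31 of the 36 members, with none for INHBE, SLC7A11, PSPH, SHMT2 and ALDH1L2. They were searched on both strands for 3 motifs: a C/EBP-ATF composite core (TGATGNAA), the ER stress response element ERSE (CCAAT, then 9 bases, then CCACG) and ERSE-II (ATTGG, then 1 base, then CCACG). ERSE lay in 4 of the 13 ER chaperone genes (HSPA5, XBP1, CALR and CRELD2) and in 0 of 18 ATF4-arm genes with a window, against 0.0769% of all 35116 promoter windows. ERSE-II lay in 3 of 13 ER genes (HERPUD1, HYOU1 and SDF2L1) and in 0 of 18 ATF4-arm genes, against 0.0541% of all windows. The C/EBP-ATF core lay in 6 of 18 ATF4-arm genes (ATF3, CHAC1, ASNS, SLC3A2, SLC7A1 and CEBPG) and 1 of 13 ER genes (HERPUD1), against 3.62% of all windows. These shares count genes with any matching window for the members and single windows for the background, and a match is a run of letters, not a measured site. ERSE and ERSE-II are built from the same blocks, and no member window held both. The ATF3 core lay in its window at chr1:212565157-212565456 and not in that at chr1:212614768-212615067.

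The 250 bases before the start are shown for 7 members, 5′ to 3′ on the gene's strand, with motif matches in capitals. ASNS (chr7:97872409-97872658, minus strand) and CHAC1 (chr15:40953221-40953470, plus strand) stand for the ATF4 arm, the first as an amino acid synthesis gene and the second because an IRF2BP2 peak lay at its start. In ASNS the core began 68 bases before the start, and in CHAC1 it began 209 bases before it, on the other strand.
ASNS: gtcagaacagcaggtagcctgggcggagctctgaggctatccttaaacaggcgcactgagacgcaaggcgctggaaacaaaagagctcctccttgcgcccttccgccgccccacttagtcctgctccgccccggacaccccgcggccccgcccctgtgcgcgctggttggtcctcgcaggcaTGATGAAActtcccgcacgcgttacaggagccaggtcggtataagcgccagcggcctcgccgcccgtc
CHAC1: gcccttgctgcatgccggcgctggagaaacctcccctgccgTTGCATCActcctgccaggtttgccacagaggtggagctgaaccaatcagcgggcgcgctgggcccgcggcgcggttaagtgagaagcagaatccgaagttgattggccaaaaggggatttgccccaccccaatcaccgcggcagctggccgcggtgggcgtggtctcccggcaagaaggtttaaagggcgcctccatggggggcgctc
Among the ER genes, HSPA5 (chr9:125241344-125241593, minus strand), XBP1 (chr22:28800570-28800819, minus strand) and CRELD2 (chr22:49918384-49918633, plus strand) hold ERSE, beginning 66, 52 and 80 bases before the start, with the CRELD2 copy on the other strand. They are shown together because their RNA did not move together in A549.
HSPA5: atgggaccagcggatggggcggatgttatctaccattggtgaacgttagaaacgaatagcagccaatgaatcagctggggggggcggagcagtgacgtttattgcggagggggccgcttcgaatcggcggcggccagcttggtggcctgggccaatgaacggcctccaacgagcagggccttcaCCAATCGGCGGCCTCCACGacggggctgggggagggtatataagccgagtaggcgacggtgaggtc
XBP1: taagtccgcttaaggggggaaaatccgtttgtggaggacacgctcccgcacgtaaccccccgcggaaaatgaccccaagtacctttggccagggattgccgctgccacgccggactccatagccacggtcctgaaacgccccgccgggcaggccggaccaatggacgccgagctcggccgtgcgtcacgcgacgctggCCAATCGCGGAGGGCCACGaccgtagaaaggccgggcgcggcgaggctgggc
CRELD2: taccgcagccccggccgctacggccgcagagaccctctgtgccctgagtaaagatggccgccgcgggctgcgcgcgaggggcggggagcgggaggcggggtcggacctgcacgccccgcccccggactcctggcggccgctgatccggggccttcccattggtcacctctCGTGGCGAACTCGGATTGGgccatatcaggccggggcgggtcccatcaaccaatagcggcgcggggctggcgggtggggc
HYOU1 (chr11:119057206-119057455, minus strand) holds ERSE-II at 2 places, and HERPUD1 (chr16:56931892-56932141, plus strand) holds ERSE-II and the C/EBP-ATF core in the same window.
HYOU1: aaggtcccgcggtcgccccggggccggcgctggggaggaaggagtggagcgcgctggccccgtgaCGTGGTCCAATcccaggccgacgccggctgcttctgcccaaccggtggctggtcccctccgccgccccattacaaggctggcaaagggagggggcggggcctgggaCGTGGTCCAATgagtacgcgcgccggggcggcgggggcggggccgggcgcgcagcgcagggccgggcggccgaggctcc
HERPUD1: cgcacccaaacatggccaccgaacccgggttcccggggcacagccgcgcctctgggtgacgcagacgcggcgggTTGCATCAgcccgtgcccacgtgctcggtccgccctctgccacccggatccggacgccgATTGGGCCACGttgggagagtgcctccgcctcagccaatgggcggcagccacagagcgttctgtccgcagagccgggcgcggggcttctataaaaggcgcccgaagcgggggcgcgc

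HEK293-GR values are FPKM (reads scaled to exon length and to the tags of the library) with 1 column per library and 3 libraries per group. The libraries held 18.2 to 28.5 M tags (median 21.1), and their changes were tested with limma on log2(FPKM + 0.1) across 15594 genes, with a call at a Benjamini-Hochberg adjusted p under 0.05. The labels list 4 replicates per HEK293-GR group, and the 4 samples with no column were not analysed here. In A549 the authors had pooled the libraries of each group into 1 column of 35.8 to 56.9 M tags, so calls there are the authors' deposited FDR under 0.05, with no spread between libraries and no test of differences between responses. A549 FPKM is per base of genomic span in 98.9% of rows, so A549 levels are compared within a gene and not between genes. The 11 HEK293 markers summed to 83.0 to 129 FPKM in HEK293-GR and 4.81 to 8.05 in A549. These sums rest on different lengths in the lines, so the gap does not measure how far the levels differ. At least 10 reads in 3 columns were found for all 11 in HEK293-GR and for 8 in A549. Of the 11 A549 markers in the table, 10 had reads in A549. The A549 markers, which include keratins and epithelial adhesion genes, also had reads for 8 of 11 in HEK293-GR, where they summed to 211 to 334 FPKM. All 11 markers of blood, endothelial and fibroblast cells together summed to 7.05 to 13.3 FPKM in HEK293-GR.

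IRF2BP2 itself was the check of the knockdown. In HEK293-GR it measured 23.4, 25.0 and 20.3 FPKM with siNON and 12.6, 11.8 and 13.7 with siIRF2BP2 under vehicle. Under dex it measured 20.6, 20.0 and 19.3 with siNON and 9.64, 11.1 and 10.4 with siIRF2BP2. The groups did not overlap, and the log2 change was -0.84 ± 0.08 (SE, n = 3 against 3) under vehicle and -0.94 ± 0.08 under dex, with limma adjusted p-values of 1.87e-05 and 3.44e-06. In A549 the authors' deposited table gave -0.31 (FDR 0.0130) under vehicle, -0.66 (FDR 2.48e-07) under dex, -0.40 (FDR 2.93e-04) under TNF and -0.62 (FDR 9.94e-08) under dex plus TNF. The pooled A549 levels fell from 29.7 to 26.3 FPKM under vehicle, so IRF2BP2 mRNA remained in both lines.

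In HEK293-GR cells the knockdown raised DDIT3, ATF3, PPP1R15A, INHBE and some ER degradation and co-chaperone genes. It lowered a pair of amino acid transporters. ATF4 mRNA itself was not called, and it was among the genes of high read density described below. Calls in HEK293-GR are by limma unless the authors' table is named. Under vehicle, 5 of the 23 ATF4-arm genes were called higher (DDIT3, ATF3, INHBE, ALDH1L2 and PPP1R15A) and 2 lower (SLC7A5 and SLC7A1). In the ER arm 5 of 13 were called higher (HERPUD1, SEL1L, EDEM1, DNAJB9 and HYOU1) and 0 lower. Among all genes tested, 8.00% were called higher and 7.48% lower in that comparison. These shares rested on single libraries, since without siNON vehicle replicate 3 they were 17.6% and 13.3%, and without siIRF2BP2 vehicle replicate 2 they were 3.91% and 3.53%. Without siNON vehicle replicate 1 they were 3.55% and 3.98%, and without siNON vehicle replicate 2 they were 4.67% and 3.98%. The members called higher stayed between 4 and 7 in the ATF4 arm and between 4 and 6 in the ER arm when any 1 library was left out. The authors' deposited HEK293-GR table called 5 ATF4-arm genes higher and 2 lower and 4 ER genes higher under vehicle, where it called 2.01% of the genes tested higher and 3.40% lower. It differed from limma in HYOU1 (FDR 0.117). The median log2 change was 0.12 in the ATF4 arm and 0.27 in the ER arm, beside 0.03 over all genes tested. When only the 6 vehicle libraries were fitted, 3 genes of each arm were called higher, and all genes called fell from 2414 to 567.

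Under dex, where 22.4% of all genes were called higher and 17.3% lower, 7 ATF4-arm genes were called higher and 3 lower. SLC7A11 and CEBPG joined the 5 that were higher under vehicle, and ATF5 joined the lower pair. In the ER arm 4 of 13 were called higher (SEL1L, EDEM1, DNAJB9 and DNAJC3) and 0 lower, and without the deepest library, siIRF2BP2 dex replicate 3, the count was 6, with XBP1 and MANF added. The authors' deposited HEK293-GR table called 8 ATF4-arm genes higher and 3 lower and 6 ER genes higher under dex, beside 22.2% of all genes higher and 24.3% lower. Its additions were TRIB3 (0.22), HYOU1 (0.13) and XBP1 (0.19), while the other calls were those of limma. The medians under dex were -0.01 for the ATF4 arm and 0.15 for the ER arm, beside -0.00 for all genes.

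**Figure D1:**
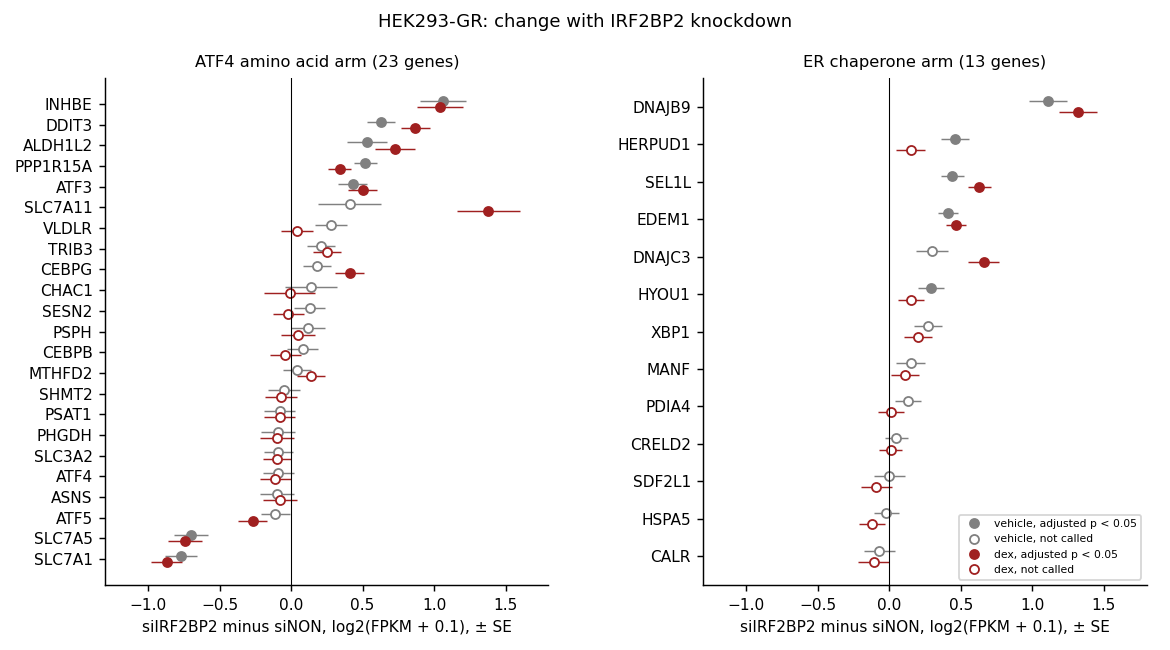
Change with IRF2BP2 knockdown in HEK293-GR for each member, as the difference of siIRF2BP2 and siNON in log2(FPKM + 0.1), with bars for the standard error and filled points for a limma adjusted p under 0.05. DNAJB9 (1.11 under vehicle, 1.32 under dex) and INHBE (1.06 and 1.04) lie far to the right, SLC7A1 (-0.77 and -0.87) and SLC7A5 (-0.70 and -0.74) to the left, and ATF4 (-0.09 and -0.11) near zero.

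DDIT3, which encodes the pro-apoptotic factor CHOP, measured 15.7, 19.5 and 13.4 FPKM with siNON and 24.3, 24.5 and 25.7 with siIRF2BP2 under vehicle. Under dex its libraries read 9.94, 10.1 and 10.7 with siNON and 18.7, 19.0 and 18.8 with siIRF2BP2. Every knockdown library lay above every control library of its treatment, and the rise was 0.63 ± 0.10 (limma adjusted p = 8.71e-04) under vehicle and 0.87 ± 0.10 (3.13e-05) under dex on the log2 scale. ATF3, a stress-induced ATF/CREB factor, stood at 22.9, 26.9 and 20.0 FPKM with siNON and 30.2, 29.2 and 34.4 with siIRF2BP2 under vehicle. The dex libraries of ATF3 were lower, at 12.96, 12.7 and 14.1 against 17.8, 20.6 and 18.1, again without overlap between the siRNAs. ATF3 rose by 0.43 ± 0.10 (limma adjusted p = 0.010) under vehicle and 0.50 ± 0.10 (0.00160) under dex.

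PPP1R15A encodes GADD34, the phosphatase subunit that reverses eIF2 phosphorylation. It measured 15.3, 13.9 and 13.1 FPKM against 20.4, 18.5 and 21.9 under vehicle, and 13.8, 13.5 and 14.3 against 17.8, 17.4 and 17.6 under dex. Both comparisons were called, with log2 changes of 0.52 ± 0.08 (limma adjusted p = 4.47e-04) and 0.34 ± 0.08 (0.00270). INHBE, an activin subunit gene known as an ATF4 target, read 7.70, 10.3 and 6.19 FPKM with siNON and 16.8, 15.4 and 17.6 with siIRF2BP2 under vehicle. Its dex libraries read 4.99, 4.27 and 6.78 against 10.6, 11.6 and 10.5. The knockdown rise of INHBE, 1.06 ± 0.16 (limma adjusted p = 6.55e-04) under vehicle and 1.04 ± 0.16 (3.25e-04) under dex took the group means from 8.05 to 16.6 and from 5.35 to 10.9 FPKM.

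The amino acid transporters moved in different directions. SLC7A1, the cationic amino acid transporter, measured 29.998, 34.3 and 25.0 FPKM with siNON and 16.6, 15.9 and 19.5 with siIRF2BP2 under vehicle, and 30.1, 28.8 and 32.2 against 15.4, 18.0 and 16.3 under dex. It fell by 0.77 on the log2 scale (SE 0.11, limma adjusted p = 3.01e-04) and by 0.87 (SE 0.11, 5.59e-05), with no overlap. SLC7A5, the light chain of the large neutral amino acid exchanger, fell by 0.70 (limma adjusted p = 0.00152) and by 0.74 (4.29e-04). SLC3A2, the heavy chain that carries both SLC7A5 and SLC7A11 to the membrane, was not called, at -0.09 and -0.10. SLC7A11, the cystine importer, read 2.78, 4.13 and 5.04 FPKM with siNON and 4.29, 7.91 and 4.04 with siIRF2BP2 under vehicle, where the groups overlapped and no call was made (0.41 ± 0.22, limma adjusted p = 0.228). Under dex it read 1.22, 1.40 and 1.32 against 4.01, 3.16 and 3.61, and the rise was 1.38 ± 0.22 (limma adjusted p = 4.49e-04).

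The other calls of the ATF4 arm were smaller or held in 1 treatment. ALDH1L2, a mitochondrial folate enzyme, rose by 0.53 (limma adjusted p = 0.0179) and 0.73 (0.00116). The vehicle call of ALDH1L2 was lost without siNON vehicle replicate 1 or siIRF2BP2 vehicle replicate 2 (0.40 to 0.46). CEBPG, a C/EBP partner of ATF4, was 0.18 (not called) under vehicle and 0.41 (limma adjusted p = 0.00430) under dex. ATF5, a factor related to ATF4, was called lower under dex (-0.27, limma adjusted p = 0.0471), a call lost on leaving out any of 8 of the 12 libraries in turn. Of the ATF5 span 15.9% overlaps NUP62 on the other strand, and whether the counting used strand is not stated in the sources used here. ATF4 itself measured 62.8, 76.4 and 60.2 FPKM with siNON and 59.0, 59.7 and 67.6 with siIRF2BP2 under vehicle, with overlapping groups (-0.09 ± 0.11). The serine and one-carbon genes PHGDH, PSAT1, PSPH, SHMT2 and MTHFD2 and the asparagine synthetase gene ASNS were not called in either treatment, and neither were CHAC1, TRIB3, SESN2, VLDLR or CEBPB.

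**Figure D2:**
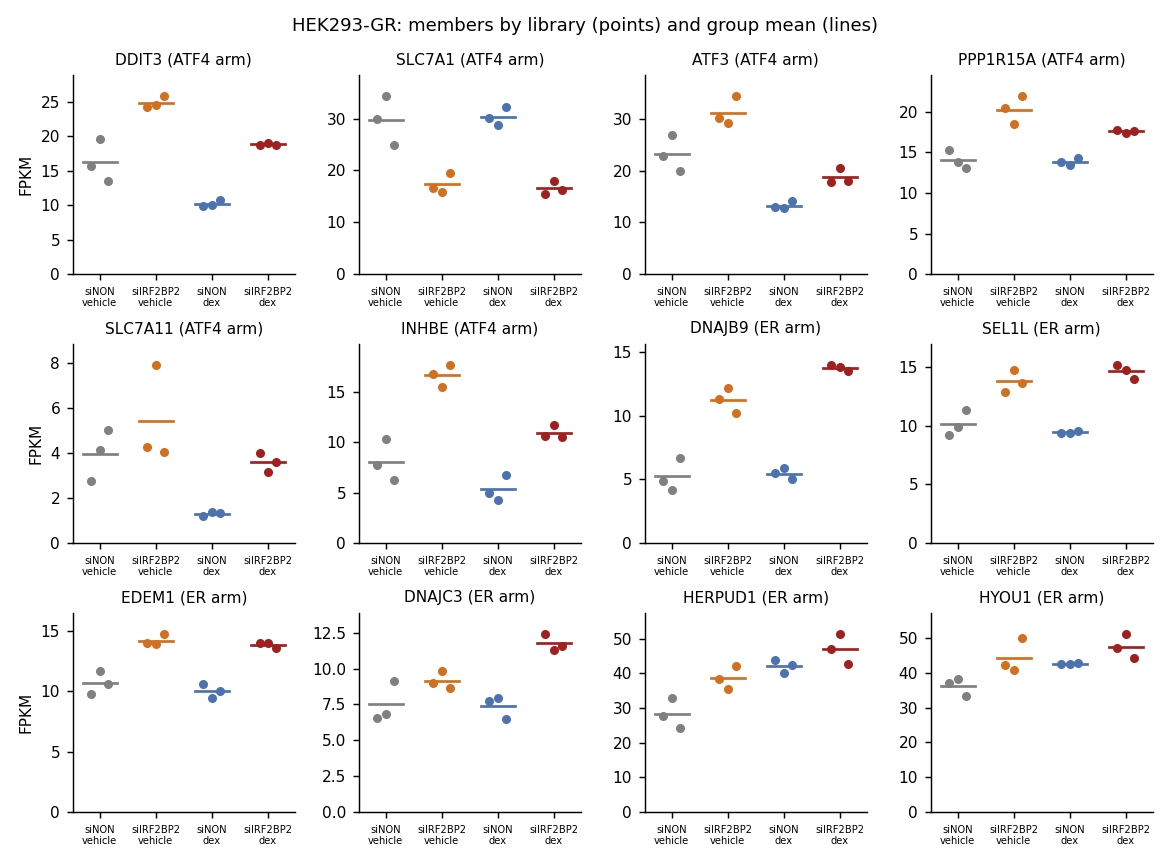
FPKM of 12 members in each HEK293-GR library (points) with the group mean (lines), for siNON and siIRF2BP2 under vehicle and dex. DNAJB9 rises from a mean of 5.25 to 11.2 FPKM under vehicle, and SLC7A11 falls with dex from 3.98 to 1.31 FPKM in siNON cells.

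In the ER arm DNAJB9, an ER co-chaperone (ERdj4) and IRE1-XBP1 target, had the largest HEK293-GR knockdown change of the 13 in both treatments. It measured 4.91, 4.16 and 6.67 FPKM with siNON and 11.3, 12.2 and 10.2 with siIRF2BP2 under vehicle, and 5.52, 5.88 and 5.01 against 14.0, 13.9 and 13.5 under dex. The groups did not overlap, and DNAJB9 rose by 1.11 ± 0.13 (limma adjusted p = 5.83e-05) and 1.32 ± 0.13 (6.67e-06). SEL1L, the adaptor of the HRD1 ubiquitin ligase in ER-associated degradation, read 9.26, 9.89 and 11.3 FPKM against 12.9, 14.8 and 13.7 under vehicle, and 9.37, 9.38 and 9.59 against 15.2, 14.7 and 14.0 under dex. SEL1L rose by 0.44 ± 0.08 (limma adjusted p = 0.00220) and 0.63 ± 0.08 (7.67e-05).

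EDEM1, which directs misfolded glycoproteins to degradation, read 9.78, 11.7 and 10.6 FPKM against 14.0, 13.9 and 14.7 under vehicle, and 10.6, 9.46 and 9.98 against 14.0, 14.0 and 13.6 under dex. It rose by 0.41 ± 0.07 (limma adjusted p = 0.00223) and 0.47 ± 0.07 (4.02e-04), with no overlap in either treatment. DNAJC3 (p58IPK, a co-chaperone) read 6.56, 6.86 and 9.14 FPKM against 9.01, 9.84 and 8.65 under vehicle, where the groups overlapped and the change of 0.30 was not called (limma adjusted p = 0.0877). Under dex DNAJC3 read 7.77, 7.98 and 6.49 against 12.4, 11.3 and 11.6, a rise of 0.66 ± 0.11 (limma adjusted p = 6.07e-04). HERPUD1, an ER membrane degradation factor, read 27.8, 32.8 and 24.3 FPKM against 38.5, 35.4 and 42.0 under vehicle, a rise of 0.46 ± 0.10 (limma adjusted p = 0.00925). Its dex libraries, 43.7, 40.0 and 42.4 against 46.9, 51.2 and 42.6, overlapped (0.15, adjusted p = 0.247). HYOU1 (the large HSP70-family ER chaperone GRP170) was called under vehicle only (0.29, limma adjusted p = 0.0365), with 37.0, 38.1 and 33.4 FPKM against 42.2, 40.7 and 50.1, and that call was lost on leaving out any of 8 of the 12 libraries. Its dex libraries read 42.6, 42.5 and 42.8 against 47.1, 51.1 and 44.2 FPKM (0.15, adjusted p = 0.179).

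HSPA5, XBP1, CALR, PDIA4, SDF2L1, MANF and CRELD2 gave no knockdown call by limma in HEK293-GR. HSPA5 (BiP, the master ER chaperone) read 46.8, 49.7 and 47.2 FPKM against 45.3, 45.3 and 51.6 under vehicle (-0.02 ± 0.09) and 53.4, 51.5 and 51.7 against 49.8, 53.5 and 41.8 under dex (-0.12 ± 0.09). XBP1 read 38.2, 43.1 and 35.6 FPKM against 45.5, 45.1 and 50.3 under vehicle, with no overlap but no call (0.27 ± 0.10, limma adjusted p = 0.0691, and 0.0304 with median-of-ratios scaling), and 44.4, 41.2 and 42.6 against 50.1, 55.4 and 43.0 under dex (0.20 ± 0.10). CALR, PDIA4, SDF2L1, MANF and CRELD2, which code for calreticulin, a protein disulfide isomerase, an ER co-chaperone and a pair of secreted or ER-resident stress proteins, lay between -0.11 and 0.15 in both treatments.

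Read density differed among the members. The densest gene of each HEK293-GR library had 2.83 to 3.11 reads per base whatever the depth, against 142 to 326 in the pooled A549 columns. Of the 36 members, 9 had a mean of at least 1 read per base (ATF4, ASNS, PSAT1, PHGDH, SHMT2, MTHFD2, HSPA5, PDIA4 and CALR). For 8 of these 9 the lowest FPKM of all libraries was in the deepest one (28.5 M tags), and 0 of the 9 were called in any of the 4 knockdown and dex comparisons. Of the 27 members below that density, 3 were lowest in the deepest library and 18 were called. CALR measured 72.0 FPKM in the deepest library and 98.6 in the shallowest (18.2 M tags), and both libraries belong to the siIRF2BP2 dex group. In the knockdown comparisons the 9 dense members lay between -0.12 and 0.14 in HEK293-GR, whereas in A549 the authors' deposited table called 6 of them lower and 1 higher in 4 of 4 knockdown comparisons. The shares of all genes, or of all dense genes, called in these ways were not counted, so the contrast between dense and other members has no baseline. Over the 12 libraries ATF4 had 2581 to 2983 reads, PHGDH 3082 to 3610 and CALR 3397 to 3903, while tags ran from 18.2 to 28.5 M. The part of read density in the missing HEK293-GR calls was not tested, so these missing calls do not show unchanged RNA.

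**Figure D3:**
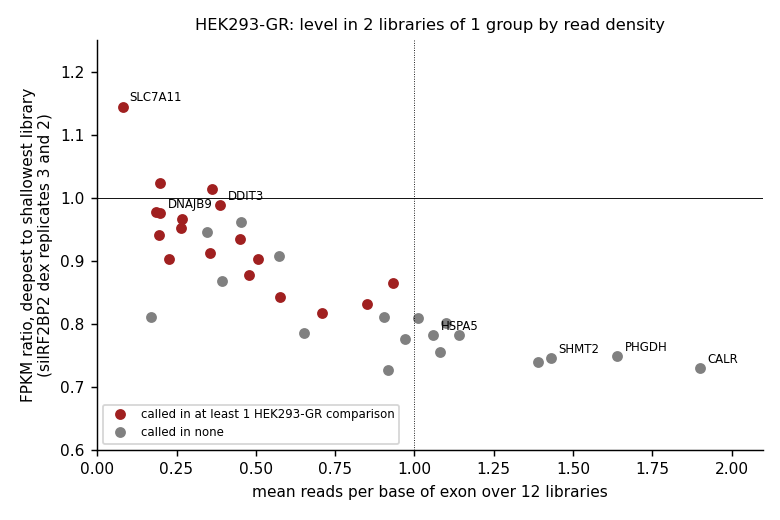
For each member, the ratio of FPKM in the deepest to that in the shallowest HEK293-GR library, both of the siIRF2BP2 dex group, against its mean reads per base of exon over 12 libraries. All members lie below a ratio of 1 except SLC7A11 (3.61 against 3.16 FPKM), PPP1R15A (17.6 against 17.4) and DNAJC3 (11.6 against 11.3). CALR, above 1 read per base, measured 72.0 against 98.6 FPKM. All 18 called members lie below 1 read per base.

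Dex lowered several ATF4-arm genes in HEK293-GR cells with either siRNA and raised HERPUD1 with siNON. With siNON, 5 of the 23 were called lower (DDIT3, ATF3, TRIB3, INHBE and SLC7A11) and 0 higher, and in the ER arm HERPUD1 was called higher and 0 lower, where 10.9% of all genes were called higher and 9.82% lower. With siIRF2BP2, 5 were again called lower (DDIT3, ATF3, TRIB3, INHBE and VLDLR) and 0 higher, and 0 ER genes were called by limma, where 5.86% of all genes were called higher and 4.59% lower. The authors' deposited HEK293-GR table made more calls of the members. With siNON it called 7 ATF4-arm genes lower, adding CEBPG (-0.29) and SLC7A5 (-0.38), and 2 ER genes higher, adding HYOU1 (0.22), beside 7.68% of all genes higher and 8.75% lower. With siIRF2BP2 it called 7 ATF4-arm genes lower, adding SLC7A5 (-0.41) and SLC7A11 (-0.62), 1 higher (CHAC1 0.31) and 2 ER genes higher (HERPUD1 0.25 and DNAJC3 0.34), beside 5.24% of all genes higher and 5.28% lower. The summed level of the 11 HEK293 markers fell beside these genes, from 125 to 129 FPKM under vehicle to 86.6 to 89.8 with dex in siNON cells and from 111 to 120 to 83.0 to 88.9 in siIRF2BP2 cells, and limma called 5 and 6 of the 11 lower and 0 higher. Their part in the dex counts was not tested. The counts of members depended on single libraries. With siNON the lower calls by limma fell to 3 without siNON vehicle replicate 2, siNON dex replicate 1 or siNON dex replicate 2, and with siIRF2BP2 they fell to 2 without siIRF2BP2 vehicle replicate 3 or siIRF2BP2 dex replicate 1, and to 3 without siIRF2BP2 vehicle replicate 1 or siIRF2BP2 dex replicate 3.

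ATF3 and DDIT3 were called lower with both siRNAs. From the library values above, the ATF3 mean went from 23.3 ± 3.47 to 13.3 ± 0.740 FPKM with siNON (SD, n = 3, log2 change -0.80 ± 0.10, limma adjusted p = 1.97e-05) and from 31.2 ± 2.75 to 18.8 ± 1.55 with siIRF2BP2 (-0.73 ± 0.10, 6.66e-05). DDIT3 went from 16.2 to 10.2 FPKM with siNON (-0.64 ± 0.10, limma adjusted p = 1.69e-04) and from 24.8 to 18.8 with siIRF2BP2 (-0.40 ± 0.10, 0.0127). In none of these did the dex libraries overlap the vehicle libraries, and the siIRF2BP2 call of DDIT3 was lost without siIRF2BP2 vehicle replicate 3 (-0.37). TRIB3, the pseudokinase that restrains ATF4 signalling, changed by -0.37 (limma adjusted p = 0.0137) and -0.33 (0.0387), and INHBE by -0.58 (0.0175) and -0.60 (0.0208), with overlapping INHBE libraries for siNON. The calls of TRIB3 and INHBE were each lost without siNON vehicle replicate 2, siNON dex replicate 1 or siNON dex replicate 2 in the siNON comparison. With siIRF2BP2 the INHBE call was lost on leaving out any of 4 libraries (-0.56 to -0.59) and the TRIB3 call on leaving out any of 5 (-0.27 to -0.33). Those of INHBE were siIRF2BP2 vehicle replicates 1 and 3 and siIRF2BP2 dex replicates 1 and 3, and TRIB3 added siNON dex replicate 1. VLDLR, a lipoprotein receptor and ATF4 target, was called lower with siIRF2BP2 (-0.49, limma adjusted p = 0.00786) and not with siNON (-0.25, 0.128), and its call was lost without siIRF2BP2 dex replicate 1 (-0.43).

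SLC7A11 had the largest dex change of the members in HEK293-GR. With siNON it went from 3.98 ± 1.13 to 1.31 ± 0.0924 FPKM (SD, n = 3), a log2 change of -1.49 ± 0.22 (limma adjusted p = 1.37e-04), and with siIRF2BP2 from 5.42 ± 2.17 to 3.59 ± 0.425, a change of -0.52 that was not called (adjusted p = 0.195). The siNON dex libraries enter both this response and the knockdown comparison under dex. The difference of the dex responses was 0.98 ± 0.32 for SLC7A11, with an unadjusted p of 0.00719 and a limma adjusted p of 0.794, so the responses were not shown to differ. DNAJC3 (0.37 ± 0.16, unadjusted p = 0.0350, limma adjusted p = 0.794) was the other member with an unadjusted p under 0.05. By limma 0 of the 36 members were called for that difference, beside 0.0128% of all genes (2 of 15594). HERPUD1 rose with dex from 28.3 ± 4.31 to 42.0 ± 1.89 FPKM with siNON (0.58 ± 0.10, limma adjusted p = 7.25e-04), and with siIRF2BP2 it went from 38.6 ± 3.35 to 46.9 ± 4.30 (0.28, adjusted p = 0.114).

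In A549 the arms parted. By the authors' deposited table the knockdown lowered most of the ATF4 arm and raised most of the ER arm, in each of the 4 treatments. Under vehicle 13 of 23 ATF4-arm genes were called lower and 2 higher, and 7 of 13 ER genes higher and 2 lower, where 17.0% of all genes were called higher and 19.0% lower. Under dex the ATF4 arm had 12 lower and 2 higher calls and the ER arm 7 higher and 2 lower (16.0% and 17.3% of all genes higher and lower). Under TNF the ATF4 arm had 12 lower and 3 higher and the ER arm 10 higher and 2 lower (20.6% and 20.1%). Under dex plus TNF the counts were 15 lower and 1 higher in the ATF4 arm and 10 higher and 1 lower in the ER arm (18.7% and 18.9%). The medians of the authors' log2 changes were -0.36, -0.54, -0.40 and -0.40 in the ATF4 arm and 0.28, 0.25, 0.70 and 0.43 in the ER arm, beside 0.00 to 0.02 over all genes. The 4 comparisons use different columns, each pooled, with no check between replicates. The summed level of the 11 blood, endothelial and fibroblast markers, of which 4 had reads in A549 and CD3E had 0, was 3.18 to 4.40 FPKM in the siNON columns and 5.37 to 8.22 in the siIRF2BP2 columns. The markers of the A549 line itself moved the other way. Of the 10 with reads, the authors' deposited table called 7, 6, 9 and 9 lower and 0 higher with the knockdown under vehicle, dex, TNF and dex plus TNF, with medians of -0.55, -0.43, -0.70 and -0.55. Their summed level was 1789, 2310, 1447 and 1771 FPKM with siNON and 1362, 1879, 971 and 1148 with siIRF2BP2. The part of either marker list in the members' counts was not tested.

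In all, 11 ATF4-arm genes were called lower in 4 of 4 knockdown comparisons in the authors' deposited table: ATF3, ATF4, ATF5, ASNS, SLC7A11, SLC3A2, SLC7A1, PSAT1, PHGDH, MTHFD2 and PPP1R15A. SESN2, a stress sensor that restrains mTORC1, was called higher in 4 of 4, and ALDH1L2, CEBPB, CEBPG, INHBE and SHMT2 were called in 0 of 4. SLC7A5 was called lower in 3 comparisons (not under TNF), TRIB3 and CHAC1 in 2 each, and PSPH in 1, while VLDLR was called higher under vehicle (0.46) and TNF (0.29). In the ER arm CRELD2, DNAJB9, HERPUD1, HYOU1, MANF, PDIA4 and XBP1 were called higher in 4 of 4, HSPA5 lower in 4 of 4, and EDEM1 in 0. The share of all A549 genes called the same way in 4 of 4 was not counted, so these counts stand without a baseline. SEL1L, SDF2L1 and CALR were called higher under TNF (0.25, 0.80 and 0.39) and dex plus TNF (0.26, 0.53 and 0.26) in the authors' deposited table. Of the 4 ER genes with ERSE, HSPA5 was called lower and XBP1 and CRELD2 higher in 4 of 4. The other, CALR, was called higher under TNF and dex plus TNF. The printed ERSE promoters were chosen with these directions known, so their contrast is a description.

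**Figure D4:**
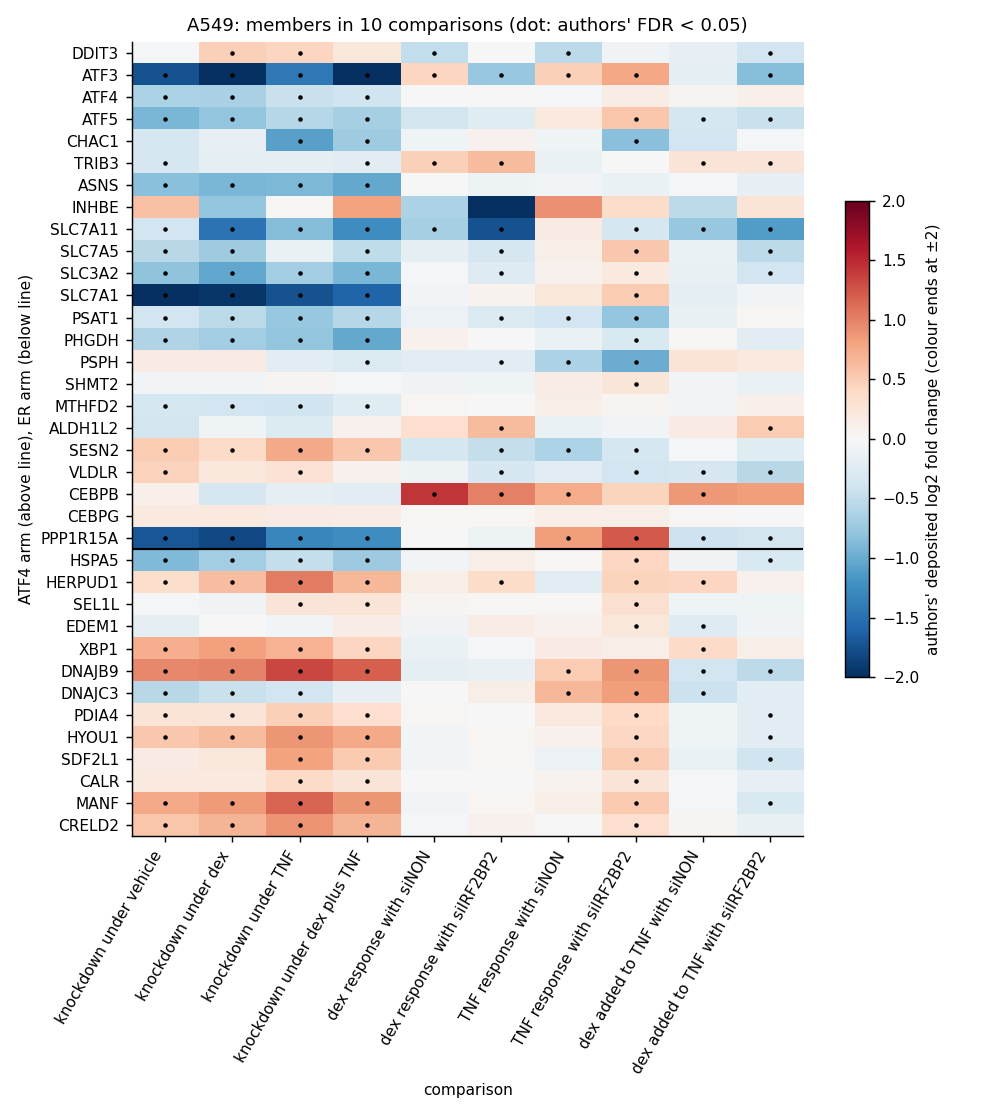
The authors' deposited log2 fold changes of the 36 members in 10 A549 comparisons (colour, red higher and blue lower in the second group), with a dot where the authors' FDR is under 0.05. In the 4 knockdown columns SLC7A1 (-2.05 to -1.60) and ATF3 (-2.94 to -1.43) are blue throughout and DNAJB9 (0.96 to 1.34) red.

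SLC7A1 measured 1.13, 1.07, 1.23 and 1.08 FPKM in the siNON columns of vehicle, dex, TNF and dex plus TNF and 0.296, 0.299, 0.388 and 0.372 in the siIRF2BP2 columns. Every siIRF2BP2 column lay below every siNON column, and the authors' deposited table gave -2.05 (FDR 4.44e-100) under vehicle and -1.60 (FDR 9.92e-46) under dex plus TNF. ATF3 read 2.24, 2.93, 2.94 and 2.49 FPKM with siNON and 0.741, 0.432, 1.18 and 0.639 with siIRF2BP2 in the same order. Its changes in the authors' deposited table ran from -1.43 under TNF (FDR 2.55e-42) to -2.94 under dex (FDR 2.95e-100). PPP1R15A read 64.2, 62.3, 105.7 and 76.9 FPKM with siNON and 21.2, 19.0, 45.7 and 35.2 with siIRF2BP2. In the authors' deposited table it changed by -1.71 (FDR 2.46e-88) under vehicle and -1.25 (FDR 4.55e-21) under dex plus TNF.

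SLC7A11 read 3.68, 2.21, 3.999 and 2.37 FPKM with siNON and 3.19, 0.940, 2.33 and 1.06 with siIRF2BP2, and the authors' deposited table gave -0.38 (FDR 0.00145) under vehicle and -1.47 (FDR 5.18e-31) under dex. CHAC1, a glutathione-degrading enzyme, read 1.47, 1.39, 1.31 and 0.995 FPKM with siNON and 1.27, 1.31, 0.651 and 0.635 with siIRF2BP2. It was called lower under TNF (-1.08, FDR 5.25e-06) and under dex plus TNF (-0.71, FDR 0.0127) in the authors' deposited table, and not under vehicle (-0.33) or dex (-0.16). CEBPB, a C/EBP factor shared with inflammation, read 68.3, 168.8, 105.6 and 182.2 FPKM with siNON and 88.7, 181.9, 102.6 and 192.2 with siIRF2BP2, and had no knockdown call. Of its span 70.5% overlaps the antisense gene CEBPB-AS1. ATF4 mRNA read 179.1, 172.1, 162.6 and 169.3 FPKM with siNON and 125.2, 118.0, 128.1 and 134.1 with siIRF2BP2, lower by the authors' deposited table in each treatment (-0.63, -0.65, -0.44 and -0.40). DDIT3 was called higher under dex (0.47, FDR 0.00132) and TNF (0.43, FDR 2.02e-04) in the authors' deposited table, and read 5.51, 3.87, 3.62 and 3.23 FPKM with siNON and 5.95, 5.66, 5.196 and 3.87 with siIRF2BP2.

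DNAJB9 read 6.49, 5.53, 8.98 and 6.89 FPKM with siNON and 14.6, 12.5, 24.4 and 16.5 with siIRF2BP2 in A549. Each siIRF2BP2 column lay above each siNON column, and the authors' deposited table gave 0.96 (FDR 7.78e-13) under vehicle and 1.34 (FDR 2.94e-48) under TNF. MANF, a secreted factor released on ER stress, read 12.4, 11.7, 12.8 and 12.5 against 23.4, 22.8, 30.4 and 24.2 FPKM, with deposited changes of 0.75 to 1.17. HERPUD1 read 7.39, 7.70, 5.96 and 8.08 against 10.3, 12.7, 12.9 and 13.4 FPKM, with 0.35 to 1.02 in the authors' deposited table. CRELD2 read 4.30, 4.07, 3.95 and 4.11 against 6.69, 6.84, 7.75 and 6.95 FPKM and HYOU1 10.6, 9.90, 10.3 and 9.78 against 16.3, 16.1, 20.0 and 17.1 FPKM. For both genes the siIRF2BP2 columns were all above the siNON columns, with deposited changes of 0.55 to 0.90 for CRELD2 and 0.54 to 0.88 for HYOU1. XBP1 read 17.8, 15.3, 19.0 and 24.7 against 32.8, 30.5, 33.1 and 35.02 FPKM (0.43 to 0.82 in the authors' deposited table). HSPA5 went the other way, at 132.7, 121.7, 125.9 and 119.9 FPKM with siNON and 79.7, 81.4, 96.3 and 76.3 with siIRF2BP2, and the authors' deposited table gave -0.88 (FDR 2.43e-27) under vehicle and -0.48 (FDR 6.00e-11) under TNF. DNAJC3 was also called lower under vehicle (-0.56), dex (-0.45) and TNF (-0.39) in the authors' deposited table, and not under dex plus TNF (-0.17, FDR 0.193).

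TNF alone moved few ER genes in A549 cells with siNON and nearly the whole arm with siIRF2BP2. With siNON 2 of 13 were called higher (DNAJB9 0.50, DNAJC3 0.67) and 0 lower in the authors' deposited table, where 10.6% of all genes were called higher and 9.87% lower. With siIRF2BP2 12 of 13 were called higher, XBP1 (0.14, FDR 0.183) being the exception, where 19.5% of all genes were called higher and 19.7% lower. The arm's median log2 change was 0.08 with siNON and 0.41 with siIRF2BP2, with values of 0.14 to 0.88 in the second, led by DNAJB9 (0.88) and DNAJC3 (0.83). HSPA5 shows the contrast, at 0.02 with siNON and 0.41 with siIRF2BP2 in the authors' deposited table. The difference between the responses was not tested, since it needs replicate columns. The pooled siIRF2BP2 TNF column enters both this response and the knockdown comparison under TNF, so their ER calls are not independent. When the ratio of the pooled FPKM was taken in place of the authors' changes, these medians were -0.03 and 0.27, and the median of all genes also moved, from -0.02 to -0.07 and from -0.01 to -0.08.

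The ATF4 arm was mixed under TNF. With siNON the authors' deposited table called 3 of 23 higher (ATF3 0.47, CEBPB 0.74, PPP1R15A 0.84) and 4 lower (DDIT3 -0.52, PSAT1 -0.39, PSPH -0.63, SESN2 -0.61). With siIRF2BP2 it called 7 higher and 7 lower, among them PPP1R15A (1.23), ATF3 (0.77) and ATF5 (0.55) higher and the serine synthesis genes PSPH (-1.0), PSAT1 (-0.77) and PHGDH (-0.31) lower. DDIT3 was not called with siIRF2BP2 (-0.07). Among all genes, 10.6% were called higher and 9.87% lower with siNON, and 19.5% and 19.7% with siIRF2BP2. The medians of the arm were 0.08 and 0.05.

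Dex changed 5 ATF4-arm genes and 0 ER genes in A549 with siNON. CEBPB (1.43, FDR 4.15e-16), TRIB3 (0.48) and ATF3 (0.43) were called higher and SLC7A11 (-0.67) and DDIT3 (-0.50) lower in the authors' deposited table, where 6.49% of all genes were called higher and 4.59% lower. With siIRF2BP2, 3 were called higher (CEBPB 1.0, TRIB3 0.63, ALDH1L2 0.63) and 8 lower, led by SLC7A11 (-1.74, FDR 2.95e-121) and ATF3 (-0.76, FDR 6.57e-09), and 1 ER gene was called, HERPUD1 (0.37), where 14.0% of all genes were called higher and 11.2% lower. ATF3 thus had opposite calls with the siRNAs, from 2.24 to 2.93 FPKM with siNON and from 0.741 to 0.432 with siIRF2BP2, a difference that was not tested. TRIB3 was higher with dex in A549 and lower with dex in HEK293-GR.

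When dex was added to TNF in siIRF2BP2 cells, 6 of 13 ER genes were called lower in the authors' deposited table (DNAJB9 -0.52, SDF2L1 -0.40, HSPA5 -0.31, MANF -0.31, PDIA4 -0.22 and HYOU1 -0.21) and 0 higher, where 13.8% of all genes were called higher and 11.8% lower. With siNON 2 were called higher (HERPUD1 0.43 and XBP1 0.38) and 3 lower (DNAJC3 -0.43, DNAJB9 -0.38 and EDEM1 -0.26), where 9.74% of all genes were called higher and 7.71% lower. In the ATF4 arm 2 were called higher and 4 lower with siNON, and 2 higher and 8 lower with siIRF2BP2, with SLC7A11 lower in both (-0.76 and -1.12). The TNF comparisons and the comparisons of dex added to TNF share the TNF columns.

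Set side by side, the lines shared the direction of SLC7A1, SLC7A5 and DNAJB9 and were opposed for ATF3 and PPP1R15A. Under vehicle 7 members were called in both lines, which is 58.3% of the 12 HEK293-GR calls and 29.2% of the 24 A549 calls. Of these, SLC7A1, SLC7A5, HERPUD1, DNAJB9 and HYOU1 changed in the same direction and ATF3 and PPP1R15A in opposite directions. Under dex 9 were called in both (64.3% of 14 and 39.1% of 23), with DDIT3, ATF5, SLC7A1, SLC7A5 and DNAJB9 the same and ATF3, SLC7A11, PPP1R15A and DNAJC3 opposite. Among the 14312 genes tested in both lines, 52.1% of the HEK293-GR calls were also called in A549 under vehicle and 38.0% under dex, which is 22.2% and 44.9% of the A549 calls. Of all 36 members 66.7% were called in A549 under vehicle and 63.9% under dex, shares above and near the 58.3% and 64.3% among the members called in HEK293-GR. Of the genes called in both lines, 88.3% of all genes had the same direction under vehicle and 74.9% under dex, beside 71.4% and 55.6% of the members. With the authors' own HEK293-GR calls, 6 members were called in both lines under vehicle (4 in the same direction) and 11 under dex (7 in the same direction), with the same opposed genes as by limma. ATF3 was 0.43 in HEK293-GR and -1.74 in A549 under vehicle, and PPP1R15A was 0.52 and -1.71. HSPA5 was -0.02 in HEK293-GR, where it was among the dense genes, and -0.88 in A549. The lines were counted and pooled in different ways and no test compares them.

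**Figure D5:**
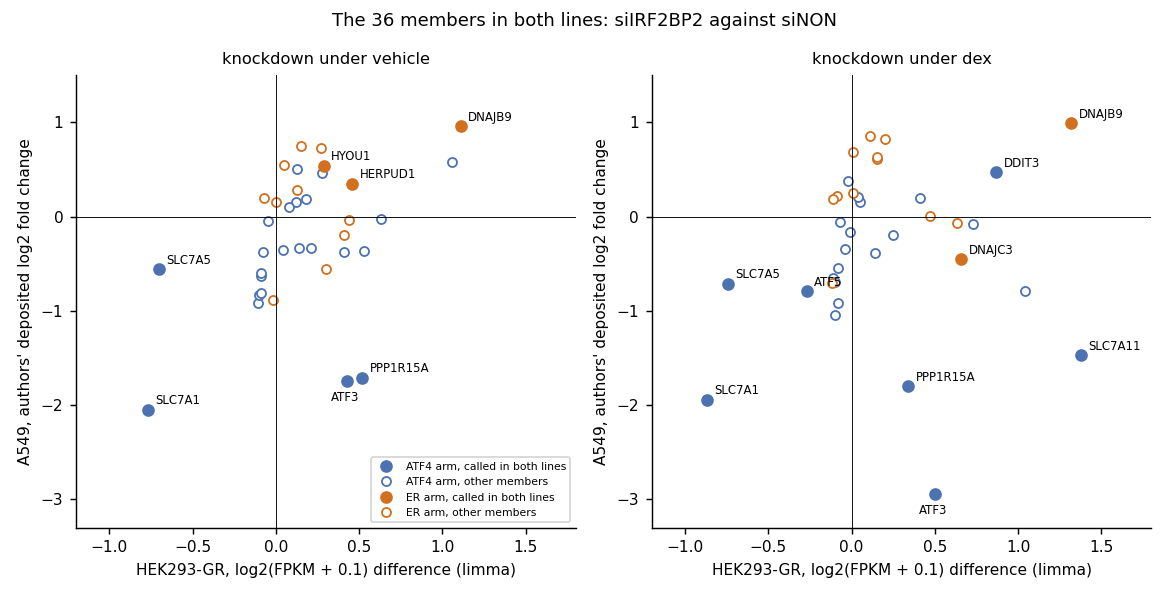
Knockdown change of the 36 members in HEK293-GR (horizontal, difference in log2(FPKM + 0.1)) and in A549 (vertical, authors' deposited log2 fold change), under vehicle and dex, with filled and named points called in both lines. DNAJB9 lies in the upper right corner (1.11 and 0.96 under vehicle), SLC7A1 in the lower left (-0.77 and -2.05), and ATF3 and PPP1R15A in the lower right.

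Genes around the members were taken from 4 further lists. Of 18 stress sensors and eIF2 genes in HEK293-GR, 3 rose with the knockdown in either treatment, EIF2AK3 (PERK, 0.48 under vehicle and 0.65 under dex), ATF6 (0.41 and 0.65) and EIF2AK2 (PKR, 0.36 and 0.47), and 1 fell. Beside the shares of all genes called higher, 8.00% under vehicle and 22.4% under dex, the rises were a larger share under vehicle and a smaller one under dex. In A549 under vehicle the authors' deposited table called 1 of these 18 higher and 2 lower. Both were smaller shares than the 17.0% and 19.0% of all genes, with MBTPS2, a protease that cleaves ATF6, at -0.86. Lower calls were 5 of 18 under dex, 6 under TNF and 5 under dex plus TNF, larger shares than the 17.3%, 20.1% and 18.9% of all genes. Higher calls were 1, 3 and 2, smaller shares than the 16.0%, 20.6% and 18.7%. ERN1 (IRE1) was called lower in each of these treatments (-0.90, -0.96 and -0.64). With dex in HEK293-GR, limma called 2 of these 18 higher and 2 lower with siNON, beside 10.9% and 9.82% of all genes. With siIRF2BP2 it called 2 higher and 0 lower, beside 5.86% and 4.59%, and ERN1 rose with both siRNAs (1.47 and 1.71). In A549 the authors' deposited table called 3 higher and 0 lower with dex and siNON, beside 6.49% and 4.59%, with EIF2AK3 at 1.37. With siIRF2BP2 it called 4 higher and 1 lower, beside 14.0% and 11.2%, with EIF2AK3 at 0.91. Of 25 other ATF4 targets, 2 rose (GADD45A 0.46, NUPR1 0.87) and 0 fell in HEK293-GR under vehicle, and 6 rose and 4 fell under dex, shares near those of all genes except for the absent falls under vehicle. In A549 1 of the 23 with reads was called higher and 10 lower under vehicle in the authors' deposited table, led by GDF15 (-1.82) and KLHL24 (-1.50), a larger share of lower calls than the 19.0% of all genes. Of 18 cytosolic aminoacyl-tRNA synthetases, 0 rose and 1 fell in HEK293-GR under vehicle (VARS -0.30), and 4 rose and 2 fell under dex, near or below the 22.4% and 17.3% of all genes. In A549 2 of the 18 were called higher and 5 lower under vehicle in the authors' deposited table, beside 17.0% and 19.0%.

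Of 30 other ER folding and degradation genes, 6 rose and 0 fell in HEK293-GR under vehicle and 10 rose and 0 fell under dex, beside 8.00% and 22.4% of all genes called higher. They included SEC24D, a coat subunit of ER exit vesicles (0.55 under vehicle), DERL3, a degradation factor (0.45 and 0.65), and FKBP14, an ER prolyl isomerase (0.90 under dex). In A549 the authors' deposited table called 8 higher and 1 lower under vehicle and 15 higher and 2 lower under TNF, beside 17.0% and 20.6% of all genes called higher, with SEC24D at 0.53 and CREB3L2 at 0.48 under vehicle. With TNF, 2 of the 30 were called higher with siNON and 14 with siIRF2BP2, beside 10.6% and 19.5% of all genes. The siIRF2BP2 TNF column is shared by that last comparison and the knockdown under TNF.

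IRF2BP2 peaks lay at the start of 3 members, all of the ATF4 arm. The deposited lists hold 1108 peaks under vehicle and 1400 with dex, with a score of 1 for every peak, so only positions (hg19) were used. Under vehicle a peak centre lay within 10 kb of the gene start for 3 of 36 members (8.33%), beside 1.10% of the 25690 genes of the HEK293-GR table. The CHAC1 peak (chr15:41245451-41245793) was centred 14 bases upstream of the start, the ATF3 peak (chr1:212781861-212782203) 62 bases downstream, and the SLC7A11 peak (chr4:139163406-139163748) 74 bases upstream. With dex 1 of 36 members (2.78%) had a peak within 10 kb, beside 1.23% of all genes, and it was ATF3 (chr1:212781844-212782175, 39 bases downstream). Within 100 kb SLC3A2 (14274 bases upstream) and CEBPB (24390 bases upstream) were added under vehicle, for 5 of 36 (13.9%) beside 7.99% of all genes. With dex 4 of 36 (11.1%) lay within 100 kb, beside 10.1%. The ATF3 start used for the peaks, chr1:212781970, is not that of its A549 transcript, chr1:212738676. Its distance from the ATF3 window with the C/EBP-ATF core was not measured. No ER chaperone gene had a peak within 100 kb in either list. Of these 3, ATF3 rose with the knockdown in HEK293-GR under vehicle (0.43), and CHAC1 (0.14) and SLC7A11 (0.41) were not called. In A549 under vehicle the authors' deposited table gave -1.74 for ATF3, -0.38 for SLC7A11 and -0.33 for CHAC1, the last not called. How the replicates and input were combined into the lists is not given in the sources used here, so no test of the peaks was made.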

How the data were processed

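RNA was measured in 40 samples and IRF2BP2 binding in 4, grouped by the sample titles. The submitters' processing notes name, without saying which step each served, Trimmomatic 0.33, TopHat2, Bowtie2, edgeR, HOMER and FastQC for RNA, HOMER 4.10.3, Bowtie 0.12.9, FastQC and bedtools for ChIP, and the genome build hg19. Per the file headers the authors deposited FPKM, by library in HEK293-GR and pooled by group in A549, with their own log2 fold changes, p-values and FDR, whose test is not stated. Every deposited peak score is 1. No column belonged to a sample outside the labels (0 such columns).

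Reads were recovered from FPKM, the deposited length and tags, with the tags fitted to make reads whole. The length is genomic span in most A549 rows. At least 99.98% of the values checked, all on short rows, were whole within the rounding of FPKM plus 0.01 reads. A HEK293-GR gene was kept when 3 libraries or more had 10 reads or more. The test was limma 3.58.1 with a trend (R 4.3.3), run once over 12 libraries on log2(FPKM + 0.1) and adjusted at 0.05. The fit was also run on simulated independent reads with no limit on reads per base, so that run does not bear on the dense genes. For A549 the transcript with the highest mean reads stood for each gene (88 transcripts for the 36 members), and the direction of the deposited changes was checked against the FPKM. The members, arms and further lists were chosen with earlier results of these data known, so counts over them are descriptions. By the rule for named genes, all 36 members are accounted for. Per-library values are given for the 6 called genes of each arm with the smallest p in HEK293-GR. Pooled values are given for the 6 of each arm with the largest deposited change in A549. DDIT3, ATF4, HSPA5 and XBP1 are always named, with at most 3 genes per further list and comparison. Alternatives changed the pseudocount, the filter, the scaling, the model, the groups fitted, the libraries, the transcript and the peak distance.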

Additional observations from a re-analysis of the deposited data

Results flagged for a closer look

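A few members were called in opposite directions in the cell lines, with every HEK293-GR knockdown library above every control library. None of these differences was tested, since the A549 columns are pooled. Under vehicle the A549 log2 change in the authors' deposited table was -1.74 for ATF3, against 0.43 in HEK293-GR, and -1.71 for PPP1R15A, against 0.52. Under dex it was -2.94 for ATF3 against 0.50, -1.80 for PPP1R15A against 0.34, -1.47 for SLC7A11 against 1.38, and -0.45 for DNAJC3 against 0.66. Within A549, ATF3 was called higher with dex in siNON cells (0.43) and lower in siIRF2BP2 cells (-0.76).

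The groups of 3 HEK293-GR libraries were not examined for outlying samples.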

How the results depend on the processing

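Of the member values in HEK293-GR none changed sign under any alternative while called. Fitting only the 2 groups compared gave 567 genes, 3 ATF4-arm and 3 ER-arm members higher with the knockdown under vehicle, 2 ER members higher with dex and siNON, and 1 ATF4-arm and 2 ER members higher with dex and siIRF2BP2. Median-of-ratios scaling and limma-voom on recovered reads each gave 2 ER members higher with dex and siNON, and limma-voom 1 with siIRF2BP2. With no filter 3 ATF4-arm members were lower with dex and siIRF2BP2. A pseudocount of 1 called 22 genes for the difference of the dex responses, none of them a member, and a pseudocount of 0.01 moved no count by over 1.5 times.

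Same-numbered replicates did not deviate together (correlations from -0.377 to 0.261, over 0.1 in 4 of 18 pairs, and 2 of 12 libraries closest to their own number), so the numbers were not taken as pairs. With the replicate block 0 genes were called for the difference of the dex responses, and the calls of HYOU1 under vehicle (adjusted p = 0.0699), ATF5 under dex (0.0682) and TRIB3 with dex and siIRF2BP2 (0.0657) were lost by limma.

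Leaving out 1 library at a time gave, for the knockdown under vehicle, 1161 to 4815 genes, 4 to 7 ATF4-arm members higher and 2 lower, and 4 to 6 ER members higher. Under dex it gave 4139 to 7062 genes, 7 to 8 and 2 to 3 ATF4-arm members higher and lower, and 4 to 6 ER members higher. For the dex response it gave with siNON 1976 to 3909 genes, 0 to 1 and 3 to 7 ATF4-arm members higher and lower, and 1 to 2 ER members higher, and with siIRF2BP2 1250 to 2055 genes, 2 to 7 ATF4-arm members lower and 0 to 2 ER members higher. For the difference it gave 0 to 7 genes and 0 members.

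In A549 the choice of transcript changed no call. Many members had only 1 transcript, among them SLC7A11, SLC7A1, PPP1R15A, HSPA5, DNAJB9 and MANF, so for these nothing could change. The log2 ratio of pooled FPKM moved the medians of the knockdown to -0.20 (ATF4 arm) and 0.38 (ER arm) under vehicle, and of the ATF4 arm to -0.21 under dex and -0.29 under TNF. It moved those of the TNF response to -0.04 and -0.03 with siNON and -0.07 and 0.27 with siIRF2BP2, so the siNON medians and the ATF4-arm median with siIRF2BP2 changed sign. Peaks within 50 kb of a start were found for 5 members under vehicle and 3 with dex, and within 100 kb for 5 and 4. The cause of these shifts was not tested. Precision rests on 3 libraries per group in HEK293-GR and on pooled columns with no spread in A549, and no HEK293-GR gene went far above 3 reads per base.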
